A study of Mus musculus with 12 samples.

Results

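The collagen genes of the mouse caput epididymidis were taken as all gene names made of Col, a number, a and a number in the caput transcriptome table. The rule gave 42 of the 22021 genes in the table, with the transcript of highest mean level standing for each gene, and 37 of the 42 had only 1 transcript listed. Of these, 30 reached 1 RPKM (reads per kilobase of transcript and per megaread of the library) in at least 1 library, and the other 12 lay below it in both. The table measures RNA of whole caput tissue, so the rule names genes and not cells of the stroma.

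Each genotype was 1 library from pooled tissue of C57BL/6 mice that were 13 months old, made from 7 wild-type (WT) animals or from 7 animals labelled Gpx5-/- (KO). Gpx5 encodes a glutathione peroxidase that the caput epithelium secretes. Fat and connective tissue around the epididymis had been trimmed away. The caput had then been punctured and incubated in buffer so that sperm could leave before RNA was extracted. Further libraries of small RNAs covered caput, corpus and cauda epididymidis and testis of mice of the same age and genotypes, and caput of WT and KO mice of 2 months, for which the labels used here give no number of animals. With 1 library per group, no difference has a replicate check, no p-value is given, and every interval is an exact 95% interval that covers counting error only.

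Collagens are secreted or membrane-bound proteins in which 3 chains wind into a triple helix. Fibril-forming types build the tensile fibrils of connective tissue, type IV builds the sheet under epithelia, vessels and smooth muscle, type VI forms beaded filaments around cells, and fibril-associated collagens with interrupted triple helices (FACITs) sit on fibril surfaces. In the epididymis, the tubule is wrapped by a basement membrane, smooth muscle and a thin interstitium with fibroblasts and vessels.

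The 2 transcriptome libraries held 14348655 WT and 13929327 KO reads. Gpx5 stood at 8474 RPKM in WT and 918 RPKM in KO, a level 9.23-fold lower (9.11 to 9.35), so the KO library still held 24587 reads of the gene. Connective tissue was present by its markers: all 15 fibroblast markers and all 10 smooth muscle markers passed 1 RPKM, as did 10 of 11 endothelial markers. Summed levels were 128 and 209 RPKM (WT and KO) for fibroblast markers. Of that sum Gsn held 51.8 and 92.5, Pdgfra 20.4 and 37.3 and Dpp4 17.1 and 41. Vim, the next highest fibroblast marker, went the other way, from 14.3 to 10.3 RPKM. Of the 15 fibroblast markers, 10 had a log2(RPKM + 1) difference above 0, with a list median of 0.13. The sum thus does not stand for the list as a whole. Smooth muscle markers summed to 553 and 781 RPKM, and endothelial markers to 21.6 and 26.1 RPKM. Transcripts of testicular cells were not alike in the libraries. The 19 spermatid transcripts summed to 12117 RPKM in WT and 183 RPKM in KO, and the 7 Leydig cell markers to 370 RPKM in WT and 11.9 RPKM in KO.

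Together the 42 genes gave nearly the same sum in both libraries, 140 RPKM in WT and 139 RPKM in KO, from 11838 and 11883 reads. Those reads were 0.0825% of the WT library and 0.0853% of the KO library. Col22a1, Col9a3, Col20a1 and Col2a1 fell from a joint 30.2 RPKM in WT to 0.671 RPKM in KO. The other 38 genes went from 110 RPKM to 138 RPKM, from 9720 and 11844 reads, which is a description only, since the call that chose the 4 genes also set this remainder. Of the 38, 24 had a difference above 0, with a median of 0.13 on the log2(RPKM + 1) scale, and Col6a4 alone went from 1958 to 2985 reads. Fewer cells of a type and less RNA per cell cannot be told apart in such bulk tissue.

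A gene was called higher or lower where its log2(RPKM + 1) differed by at least 1 between the libraries, among genes that reached 1 RPKM. This scale understates the change of low genes. By this call 0 of the 30 collagens past the level filter were higher in KO, beside 2.77% of all 15000 genes past it, and 4 of 30 (13.3%) were lower, beside 22.1% of all genes. The median difference was 0.19 for the 30 collagens and 0.05 for all genes, with 20 collagens above 0 and 10 below. The interval of the read ratio lay above 1 for 13 of the 30 (43.3%), beside 38.6% of all genes, and below 1 for 7 (23.3%), beside 38.2% of all genes. It held 1 for the other 10. The share with an interval above 1 was thus near that of all genes, and the share below 1 was under it.

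**Figure D1:**
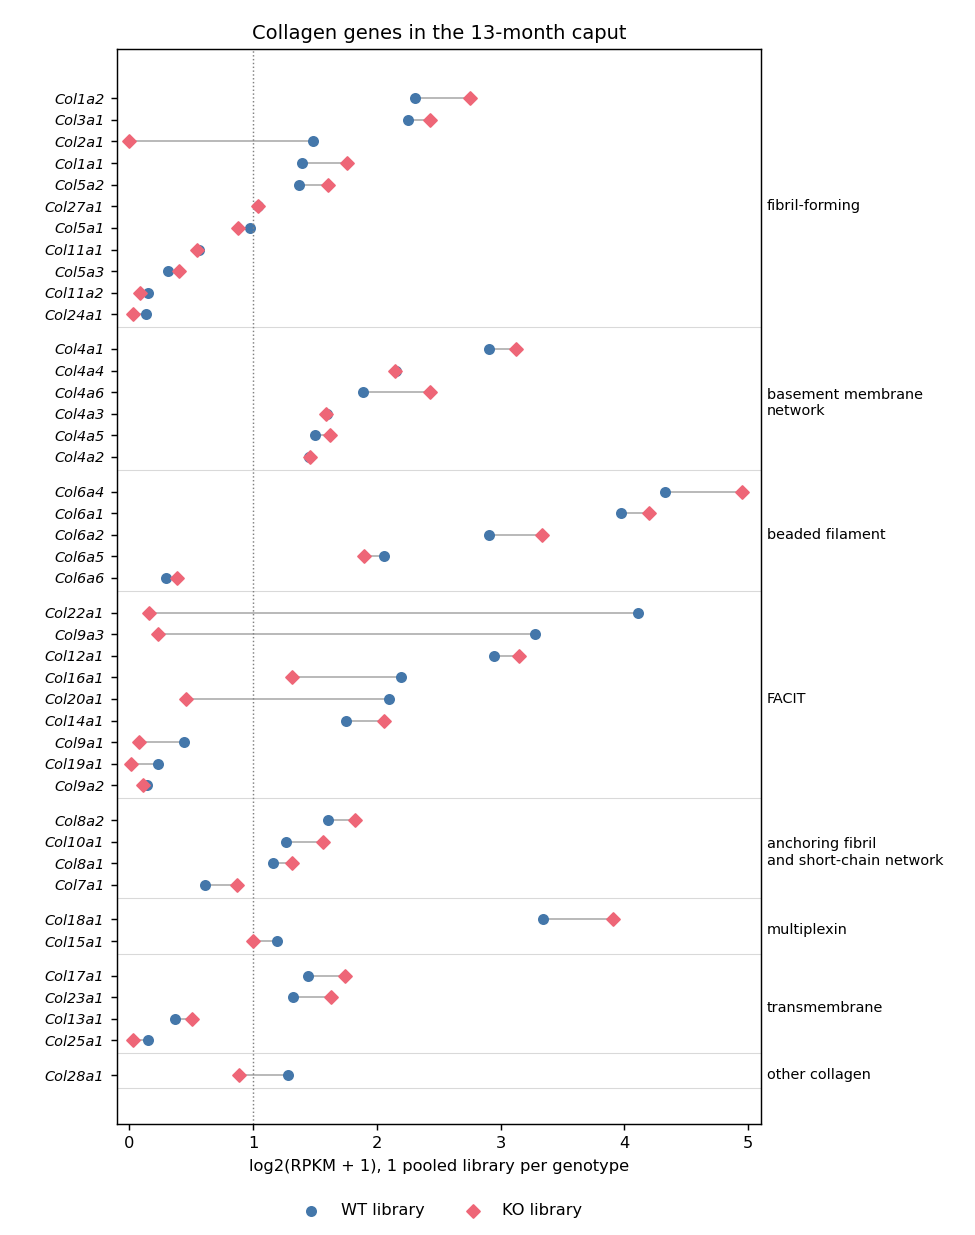
Levels of the 42 collagen genes as log2(RPKM + 1) (x axis) in the WT library (circles) and the KO library (diamonds), by structural class, with a dotted line at 1 RPKM. Col22a1, Col9a3, Col20a1 and Col2a1 have the long lines that run left to KO, and most other pairs lie close together with the KO mark on the right.

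The 4 called collagens were 3 FACITs and 1 fibril-forming collagen. Col22a1 (NM_027174), a FACIT known from muscle-tendon and other tissue junctions, stood at 16.3 RPKM in WT, where only Col6a4 was higher among collagens, and at 0.117 RPKM in KO. The libraries held 1437 and 10 of its reads, a level 140-fold lower in KO (75.6 to 292), with a log2(RPKM + 1) difference of -3.96. Col9a3 (NM_009936), a chain of type IX, which decorates type II fibrils in cartilage, stood at 8.72 RPKM in WT and 0.177 RPKM in KO. Its reads were 356 and 7, a level 49.4-fold lower (23.7 to 124), with a difference of -3.05. Both genes were among the 5 highest collagens in WT and among the 9 lowest in KO.

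Col20a1 (NM_028518), a further FACIT, stood at 3.29 RPKM in WT and 0.377 RPKM in KO from 198 and 22 reads, 8.74-fold lower (5.61 to 14.3), with a difference of -1.64. Col2a1 (NM_001113515), the main fibril chain of cartilage, stood at 1.8 RPKM in WT from 127 reads and was at 0 reads in KO. Against a floor of 3 reads in the KO library it was 41.1-fold lower, and the lower bound of its exact interval was 32.9-fold. With a pseudocount of 5 in place of 1, Col20a1 and Col2a1 no longer passed the call. Among the chains that pair with these, Col9a1 gave 20 WT and 3 KO reads and Col9a2 gave 4 and 3, both under 1 RPKM.

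Testicular transcripts moved with these 4 genes, as did many other genes. Of all 15000 genes past the filter, 22.1% were called lower in KO. All 19 spermatid transcripts were lower in KO, with a median difference of -5.29 and list members such as Prm2, a protamine that packs sperm DNA, at 2745 RPKM in WT and 51.7 RPKM in KO. All 7 Leydig cell markers were lower, with a median of -3.77, and Insl3, a Leydig cell hormone, went from 219 to 1.47 RPKM. Of 9 Sertoli and peritubular cell markers past the filter, 6 were lower, with a list median of -1.60. The other 3 were not called, and 2 of them were above 0, among them Sox9 at 3.26 and 4.21 RPKM. Gata4, Dmrt1 and Shbg were at 0 in KO, as was Fshr, which lay below the filter with 8 WT reads. The sum of that list went the other way, from 1554 to 2977 RPKM, since Clu, a secreted chaperone also made by caput epithelium, made up 1507 and 2961 RPKM of it. The part of testicular RNA in the difference of the 4 collagens was not tested.

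Col20a1 was the only called collagen among the 34 members with a RefSeq promoter window (GRCm38.p6). Its 250 bases before the start, on the plus strand of chr2:180986285-180986534, are printed here beside those of Col6a4, the highest collagen, on the minus strand of chr9:106096692-106096941. Capitals mark CCAAT and GGGCGG, searched on both strands, so GGGCGG also shows as its reverse complement.
Col20a1: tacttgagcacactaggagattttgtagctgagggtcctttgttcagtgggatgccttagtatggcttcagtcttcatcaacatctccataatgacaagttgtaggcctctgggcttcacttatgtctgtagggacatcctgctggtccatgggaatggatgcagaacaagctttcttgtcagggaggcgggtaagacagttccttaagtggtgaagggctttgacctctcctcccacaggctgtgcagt
Col6a4: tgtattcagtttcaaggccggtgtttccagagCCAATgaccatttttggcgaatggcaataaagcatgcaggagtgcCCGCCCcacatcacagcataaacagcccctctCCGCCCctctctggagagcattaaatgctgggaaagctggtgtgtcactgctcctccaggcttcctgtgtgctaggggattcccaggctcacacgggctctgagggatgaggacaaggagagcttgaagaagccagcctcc

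The Col6a4 window held 1 CCAAT and 2 GGGCGG matches, and the Col20a1 window held neither. Over the 37 windows of the 34 members, GGGCGG, the core of the GC box, was found in 22 (59.5%), beside 32.7% of all 32851 windows of that length. The member windows were also richer in G and C, with a median of 59.2% against 52.4% in all windows, so the GC box shares are not matched for base content. CCAAT was found in 35.1% of member windows and 33.8% of all windows. TATAAA was found in 13.5% of member windows and 12.4% of all, in those of Col3a1, Col10a1, Col11a2, Col13a1 and Col17a1. TGACGTCA was found in 0 of 37 member windows and 1.55% of all, and the shorter TGACGT, which TGACGTCA contains, in 5.41% and 6.47%.

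Beaded-filament collagens had the largest summed level of any class in both libraries. They held 31.2% of all collagen RPKM in WT and 42.8% in KO. Col6a4 (NM_026763) was the highest collagen of both libraries, at 19.1 RPKM in WT and 30 RPKM in KO, from 1958 and 2985 reads, a KO over WT ratio of 1.57 (1.48 to 1.66). Col6a1 (NM_009933), a core chain of the type VI filament, stood at 14.7 and 17.4 RPKM, a ratio of 1.19 (1.08 to 1.3) from 838 and 965 reads. Its partner Col6a2 (NM_146007) stood at 6.5 and 9.11 RPKM, a ratio of 1.4 (1.22 to 1.61) from 348 and 473 reads. Each of these 3 ratios lay above 1 by more than counting error and below the call. Col6a5, a paralogue of Col6a4, went slightly the other way, from 3.17 to 2.73 RPKM with a ratio of 0.862 (0.746 to 0.995), and Col6a6 was below 1 RPKM in both.

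Levels per length showed how the type VI genes compared. Col6a1 was 2.26 times Col6a2 in WT (1.99 to 2.57) and 1.91 times in KO (1.71 to 2.14). Col6a4 was 6.03 times Col6a5 in WT (5.42 to 6.71) and 11 times in KO (9.83 to 12.3), intervals that do not overlap. Col6a4, Col6a5 and Col6a6 are tandem neighbours and paralogues, and how the authors' counting shared reads between like sequences is not given in the sources used here. Col6a3, the third chain of the main filament, was not among the genes that the naming rule gave. It was thus not analysed here at the mRNA level, and the collagen sums and shares leave it out.

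Fibril-forming collagens were led by the chains of types I and III. Col1a2 (NM_007743), a type I chain, stood at 3.94 RPKM in WT and 5.75 RPKM in KO, a ratio of 1.46 (1.25 to 1.7) from 291 and 412 reads. Its partner Col1a1 stood at 1.63 and 2.38 RPKM, with the same ratio of 1.46 (1.14 to 1.88). Col1a2 was 2.42 times Col1a1 per length in WT (1.93 to 3.04) and 2.41 times in KO (2 to 2.92), a balance that differed between the libraries by less than counting error. Col3a1 (NM_009930), the chain of the thin reticular fibrils, stood at 3.77 and 4.39 RPKM with a ratio of 1.16 whose interval held 1 (0.993 to 1.36), from 301 and 340 reads.

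Type V collagen sets the width of type I fibrils. Col5a2 stood at 1.58 and 2.04 RPKM, a ratio of 1.29 (1.04 to 1.61), and Col5a1 just missed the filter at 0.97 and 0.837 RPKM. Col27a1 was at 1.06 RPKM in both libraries. Without Col2a1, all fibril-forming members past the filter had intervals that lay above 1 or held it. The class median difference was 0.21 over 6 genes.

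The basement membrane class, type IV, had no called gene among its 6 members and a median difference of 0.06. Col4a1 (NM_009931), which with Col4a2 makes the widespread form of the network, stood at 6.48 RPKM in WT and 7.71 RPKM in KO, a ratio of 1.19 (1.07 to 1.33) from 615 and 710 reads. Col4a2 stood at 1.74 and 1.75 RPKM, and Col4a1 exceeded it 3.73 times in WT (3.13 to 4.47) and 4.39 times in KO (3.69 to 5.26). Col4a6 (NM_053185), found with Col4a5 under epithelia and around smooth muscle, had the largest ratio of any collagen past the filter, 1.62 (1.38 to 1.9), from 2.7 to 4.38 RPKM and 258 and 406 reads. Its partner Col4a5 stood at 1.83 and 2.07 RPKM, with an interval that held 1 (0.91 to 1.4).

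Col4a4 (NM_007735) and Col4a3, chains best known from the kidney filter, were level in the libraries. Col4a4 stood at 3.45 and 3.43 RPKM from 387 and 373 reads, a ratio of 0.993 (0.859 to 1.15), and Col4a3 stood at 2.02 and 2.01 RPKM, a ratio of 0.993 (0.829 to 1.19). Col4a4 was 1.71 times Col4a3 per length in each library (1.45 to 2.01 in both). The genes of each type IV pair lie next to each other with 0 protein-coding genes between them and are known to be read in opposite directions. Strand use in the counting is not given in the sources used here, so reads in any overlap of such a pair cannot be told apart.

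FACITs held 29.8% of collagen RPKM in WT and 9.58% in KO. Of their 6 members past the filter, 3 were the called genes above, beside 22.1% of all genes called lower. Col16a1 came next, at 3.59 and 1.48 RPKM with a ratio of 0.411 (0.326 to 0.516) and a difference of -0.89. It passed the call with a pseudocount of 0.1, and also where the library totals left out genes at least 8-fold lower in KO. Col12a1 (NM_007730) and Col14a1, which bind the surface of type I fibrils, were on the other side. Col12a1 stood at 6.72 and 7.88 RPKM, a ratio of 1.17 (1.08 to 1.27) from 1124 and 1279 reads, and Col14a1 at 2.37 and 3.16 RPKM, a ratio of 1.34 (1.12 to 1.6). Col19a1, below the filter, gave 26 reads in WT and 1 in KO.

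**Figure D2:**
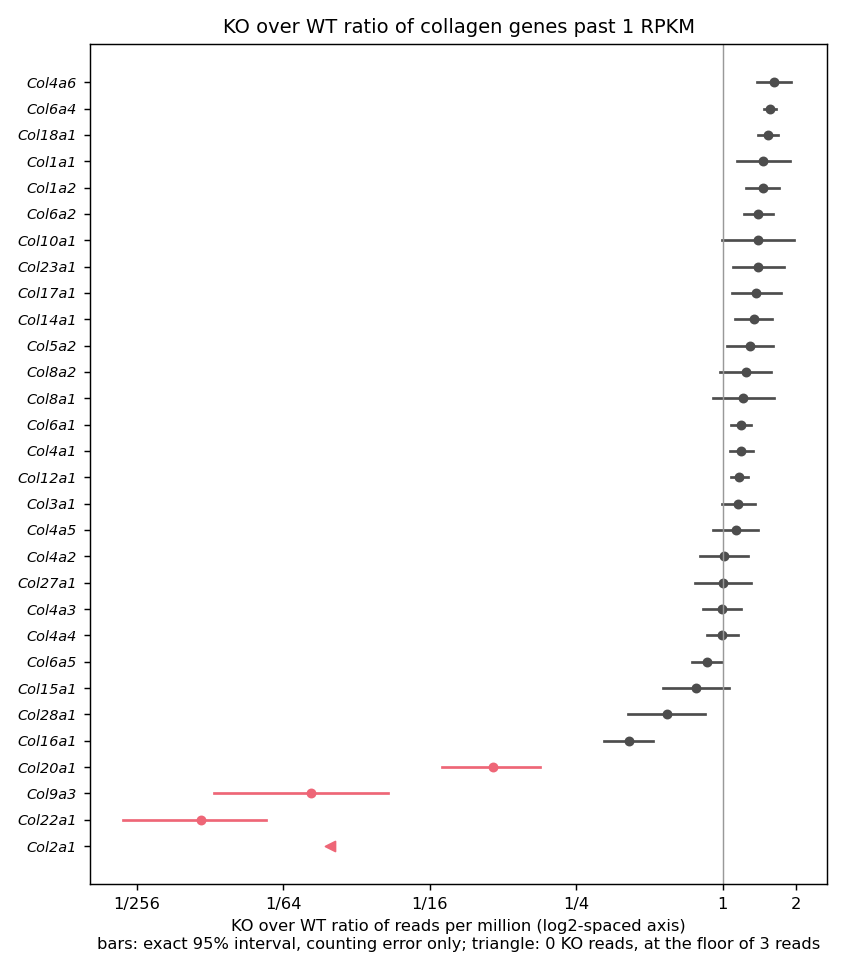
KO over WT ratio of reads scaled to library size (x axis, log2-spaced) for the 30 collagens past 1 RPKM, with exact 95% intervals for counting error only; the triangle for Col2a1, at 0 KO reads, stands at the floor of 3 reads and points to lower values. The 4 called genes stand apart on the left, Col16a1 and Col28a1 lie left of 1, and 13 intervals lie right of 1.

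Among the collagens that form no fibril, Col18a1 (NM_009929), a basement membrane proteoglycan core and the source of endostatin, stood at 9.12 RPKM in WT and 14 RPKM in KO, a ratio of 1.53 (1.39 to 1.69) from 660 and 981 reads. Col15a1, of the same multiplexin class, was at 1.28 and 0.999 RPKM with an interval that held 1 (0.567 to 1.06). Col17a1, a transmembrane collagen of the hemidesmosomes that anchor basal epithelial cells, stood at 1.72 and 2.35 RPKM, a ratio of 1.37 (1.09 to 1.73). The 6 basal cell markers moved with it, from a sum of 48.7 to 91.1 RPKM, all 6 above 0 with Krt15 called higher, and their part in the Col17a1 value was not tested. Col23a1, also a transmembrane collagen, stood at 1.5 and 2.09 RPKM, a ratio of 1.39 (1.1 to 1.78).

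Short-chain collagens form hexagonal lattices, as type VIII does around vessels and type X in growth-plate cartilage. Col8a2 stood at 2.04 and 2.54 RPKM, Col8a1 at 1.23 and 1.49 RPKM and Col10a1 at 1.4 and 1.95 RPKM, and all 3 intervals held 1. Col28a1, known from peripheral nerve, was lower beyond counting error without passing the call, at 1.43 and 0.849 RPKM with a ratio of 0.592 (0.409 to 0.848). The 12 genes below the filter were Col5a1, Col5a3, Col6a6, Col7a1, Col9a1, Col9a2, Col11a1, Col11a2, Col13a1, Col19a1, Col24a1 and Col25a1, with 1 to 117 reads each. Most collagens were low for this tissue. Of the 30 past the filter, 5 in WT and 6 in KO lay above the median of all genes past it, 7.91 and 5.85 RPKM.

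The directions of the uncalled genes rest on the scaling by total reads. Centring the differences on 23 secretory genes of caput principal cells, which were higher in KO by a median of 1.17 and summed to 20661 and 49066 RPKM, lowered every gene by that amount. All 20 positive collagen differences then turned negative, the median became -0.98 beside -1.12 for all genes, and 14 collagens were called lower, with 7 genes of the table higher and 8480 lower in place of 415 and 3321. Totals without genes at least 8-fold lower in KO gave a collagen median of 0.03 beside -0.12 for all genes. The authors' deposited table gave GFOLD values, which are fold changes shrunk for low counts, of 0 for 19 collagens, above 0 for 15 and below 0 for 8, from -5.87 for Col22a1 to 0.63 for Col6a4.

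Genes that make and handle collagen were mostly within the call, as were most genes of the table. Of all genes past the filter, 2.77% were called higher and 22.1% lower, and these shares stand beside each list count below. Of 15 modification and folding genes past the filter, Ppib, a prolyl isomerase for procollagen, was higher in KO at 115 and 242 RPKM and 0 were lower. P4hb, the shared subunit of prolyl 4-hydroxylase and a general disulfide isomerase, stood at 247 and 452 RPKM with a difference of 0.87. Serpinh1, the collagen-specific chaperone, was at 11.5 and 12.4 RPKM. Of 5 processing and crosslinking genes, 0 were called, with Pcolce, the enhancer of procollagen C-proteinase, at 17.8 and 8.77 RPKM and a difference of -0.94. Lysyl oxidase relative Loxl1 stood at 1.92 and 0.581 RPKM, a difference of -0.89.

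None of the 7 breakdown genes was called: the inhibitors Timp2 and Timp1 stood at 22.6 and 14.9 RPKM and at 2.2 and 3.88 RPKM, and Mmp14, a membrane collagenase, at 7.76 and 10.1 RPKM. Of 6 receptors 0 were called, and Itgb1, the shared beta chain of the collagen integrins, stood at 33.7 and 59.9 RPKM with a difference of 0.81. Of 19 fibril-associated proteoglycans and glycoproteins, Comp and Fbn2 were lower and 0 were higher. Comp, a cartilage and tendon glycoprotein that binds type IX and other collagens, went from 10.4 to 0.178 RPKM, and Fbn2, a microfibril protein, from 4.17 to 0.137 RPKM. Dcn, which coats type I fibrils, stood at 46.1 and 80.1 RPKM.

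The 14 other basement membrane genes past the filter held 0 calls and a median of 0.22, with Agrn, a basement membrane proteoglycan, at 8.17 and 13.1 RPKM. The 16 TGF-beta pathway genes, a pathway known to drive collagen transcription, held 0 calls, a median of 0.40 and 14 differences above 0. Among them Tgfbr1, a receptor, stood at 19 and 30.3 RPKM. Of the markers of other cells, Dpp4 alone of 15 fibroblast markers was called higher, and 0 of 10 smooth muscle, 0 of 10 endothelial and 0 of 8 leukocyte markers were called, with medians of 0.13, 0.40, 0.15 and 0.21.

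**Figure D3:**
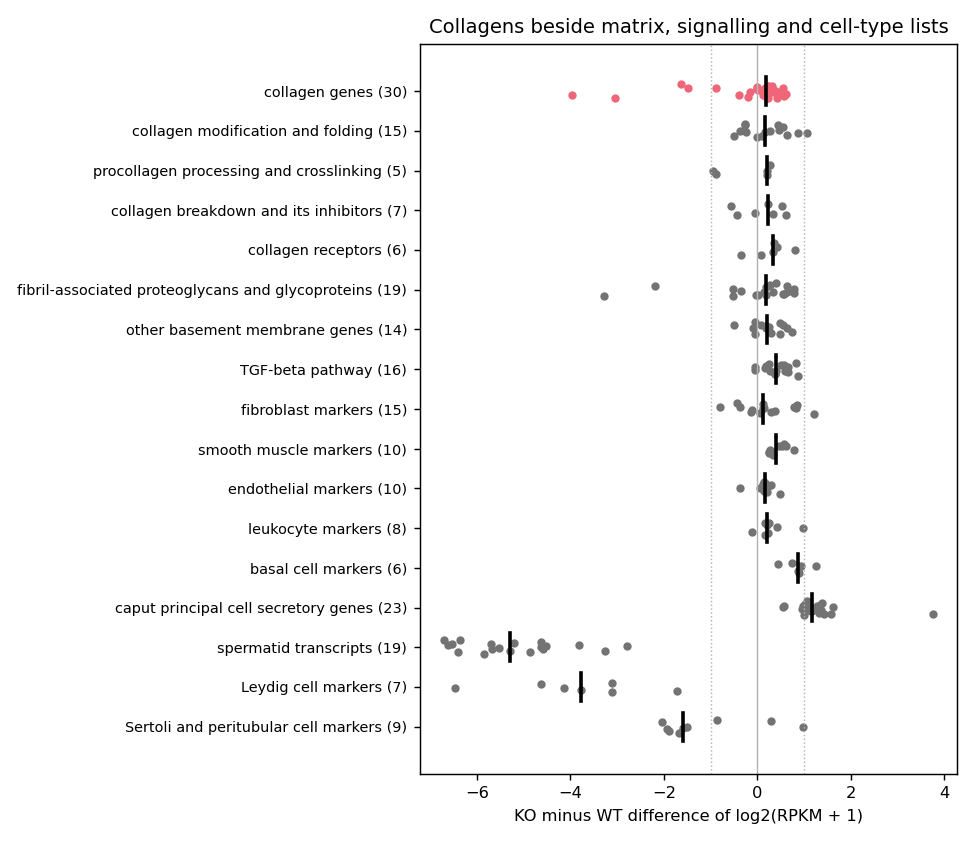
KO minus WT difference of log2(RPKM + 1) (x axis) for each gene past 1 RPKM in the collagen set and 16 other lists (gene numbers in brackets), with black ticks at the medians and dotted lines at the call. Matrix lists centre near the collagen median of 0.19, the secretory list lies at 1.17, and spermatid and Leydig lists lie far to the left.

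Small RNA libraries of 18 to 40 nt gave a second readout of the same genes, as reads that the authors' files assign to RefSeq-named collagen mRNAs. These are short pieces of mRNA and not a measure of its level. They were few: 184 of 13825045 classified reads in WT caput at 13 months, or 13.3 reads per megaread (RPM, 11.5 to 15.4), and 144 of 18362642 in KO, or 7.84 RPM (6.61 to 9.23). The KO over WT ratio was 0.589 (0.47 to 0.737) per classified read, a log2 of -0.76. Over reads without a mismatch the log2 ratio was -0.35, with an interval that held 0 (-0.77 to 0.06), and per read of the mRNA class it turned positive, to 1.27. That class made up 3.45% of classified reads in WT and 0.844% in KO.

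In cauda, fragments reached 15.6 RPM (WT) and 24.1 RPM (KO), a ratio of 1.54 (1.3 to 1.83) that per mRNA-class read became a log2 of -0.03. In corpus they stood at 8.09 and 10.3 RPM and in testis at 11.3 and 9.86 RPM, with ratios whose intervals held 1 (0.982 to 1.64 and 0.651 to 1.17). The caput libraries of 2 months gave 3 and 14 reads, or 0.778 and 1.82 RPM, with a ratio whose interval held 1 (0.654 to 12.7). Per classified read, KO cauda held the most fragments, and the direction between genotypes depended on the base in caput and cauda.

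Most epididymal fragments at 13 months had the sense of the mRNA, from 73.3% in KO corpus to 92.2% in WT cauda, against 49.5% and 45.4% in the testis libraries. The share that matched without a mismatch was 15.5% and 18.6% in the testis libraries and 53.3% to 79% in those of caput, corpus and cauda. The genes that gave the most sense fragments without a mismatch were Col6a1, Col1a2, Col6a5, Col6a2 and Col1a1. Their reads of any kind over the 10 libraries were 158, 142, 153, 107 and 95. Col6a4 gave 14 and Col12a1 gave 0, but pieces of these genes listed only under entries without a RefSeq accession were not counted. Col19a1 gave 22 reads in each testis library, 11 in WT caput and 3 in KO caput at 13 months, but few had the sense of the mRNA. Its sense reads were 1 and 4 in WT and KO testis and 0 and 1 in WT and KO caput. Col22a1, with its large mRNA difference, gave 4 and 2 reads in WT and KO caput, of which 2 and 2 were sense. Col6a3 appeared among the fragments with 8 reads in each caput library of 13 months.

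**Figure D4:**
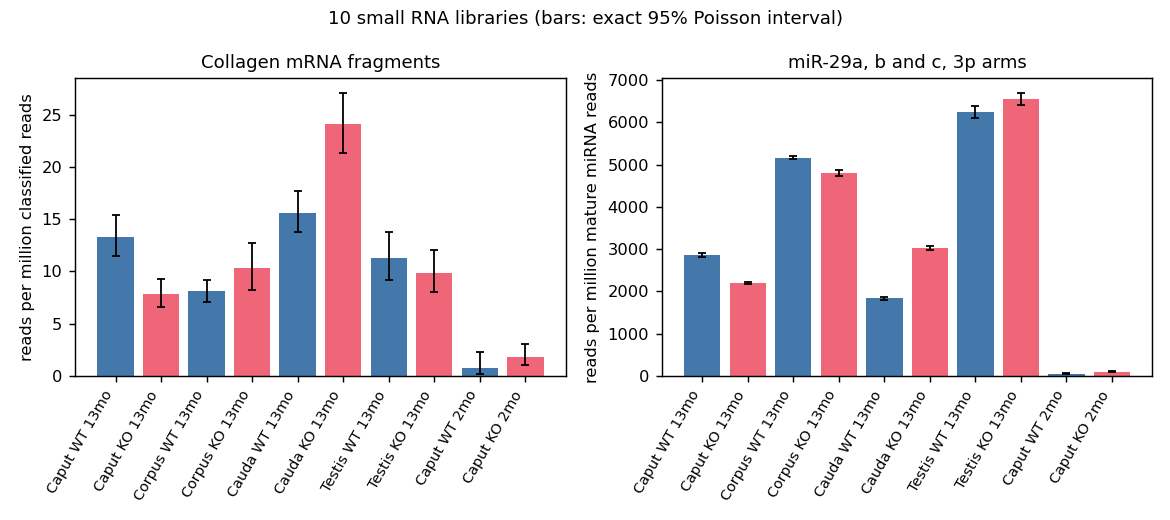
Collagen mRNA fragments in RPM of classified reads (left) and the summed 3p arms of miR-29a, b and c in RPM of mature miRNA reads (right) in each of the 10 small RNA libraries, WT in blue and KO in red, with exact 95% Poisson intervals. On these bases cauda KO has the most fragments at 24.1 RPM, testis and corpus have the most miR-29, and both 2-month caput libraries are low in each.

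The miR-29 family is known for pairing with collagen mRNAs through a common seed, so its mature 3p sequences (RefSeq, GRCm38.p6) are shown with the seed, bases 2 to 8, in capitals. All 3 share AGCACCA.
miR-29a-3p: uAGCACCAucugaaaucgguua
miR-29b-3p: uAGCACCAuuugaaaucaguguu
miR-29c-3p: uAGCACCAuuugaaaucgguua

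Summed over these arms, the WT caput library of 13 months held 2866 RPM (per miRNA read) of the family and the KO library 2192 RPM, a ratio of 0.765 (0.75 to 0.78). Most of it was miR-29a-3p, at 2466 and 1783 RPM, while miR-29b-3p gave 182 and 171 RPM and miR-29c-3p gave 218 and 239 RPM. The direction of the caput sum depended on the base: its log2 ratio was -0.39 per miRNA read, 0.15 per classified read, and 0.45 when centred on the median miRNA, whose own ratio was -0.83. In cauda the sum stood at 1832 and 3025 RPM, a ratio of 1.65 (1.61 to 1.69), and it stayed above 1 under each base. Of the cauda members, miR-29b-3p had a ratio of 2.11 (1.89 to 2.36), from 71 to 150 RPM.

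Per miRNA read, corpus and testis held the most miR-29. The sums were 5160 and 4800 RPM in corpus, a ratio of 0.93 (0.917 to 0.944) with a log2 of 0.04 when centred on the median miRNA, and 6243 and 6562 RPM in testis, a ratio of 1.05 (1.02 to 1.09). Caput at 2 months held far less, 49 and 99.2 RPM from 159 and 649 reads, a ratio of 2.02 (1.7 to 2.42). The 5p arms were minor: miR-29a-5p stood at 4.87 and 2.8 RPM in WT and KO caput at 13 months, miR-29b-2-5p at 6.72 and 2.89 RPM, miR-29b-1-5p at 0.336 and 0.0875 RPM, and miR-29c-5p at 1.85 and 1.84 RPM. Small RNA and mRNA values come from separate libraries of the caput, and no relation between them can be tested with 1 library per group.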

How the data were processed

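The submitters' processing notes name TopHat2 and Bowtie 0.12.7 and, as genome, mm9, but not which step used which. Per the file headers the authors ran GFOLD 1.1.3, and the deposited table gives an RPKM value per library and a log2 fold change for each RefSeq transcript. The deposited p-value column (E-FDR) holds 1 for each of 28344 transcripts and was not used. The small RNA files deposited by the authors list a count for each distinct sequence with its matched entry, with up to 2 mismatches. In the 2-month files 5531 WT and 5419 KO lines held a count turned into a date, read back from the month.

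Differences were taken as log2(RPKM + 1), with at least 1 RPKM in a library. Reads behind each gene were recovered from the deposited RPKM and log2 fold change: of 2643 transcripts with up to 20 reads, 99.5% came out whole within 0.1 reads. For the collagens they carry an error of up to 9.39%, common to both libraries, which touches the printed reads, their sums and shares, and interval widths. They served for intervals, and no count test was run, since each group is 1 library. Ratios of reads have exact conditional binomial intervals, and values of 0 use a floor of 3 counts. Reads carry no molecular identifiers, so both cover counting error only. On 20256 simulated transcripts of the caput comparison, 100% of 4-fold higher and 86% of 4-fold lower ones were called, with 0.015% of unchanged ones. The changed ones, 100 in each direction, were drawn from well-covered transcripts, and the unchanged ones included some below the filter. Only counting error was simulated, so these shares say nothing of differences between pools of animals or in tissue make-up.

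Fragments were counted on collagen entries with a RefSeq accession only, so pieces listed under other entries, such as those of Col6a4 and Col12a1, may be missed. Promoter windows are from RefSeq. The members, lists and thresholds were chosen with earlier results of these data known. Named are Gpx5, collagens that reach 1 RPKM (the 12 highest and the called ones in full) and those below it together. Up to 4 genes per list by level or difference and the miR-29 arms are also named. The Sertoli and peritubular list is an exception, with Clu, Sox9 and the markers at 0 in KO. Alternatives covered pseudocounts, filters, centring, library totals, transcripts, small RNA bases and mismatches. Python 3.11.15, pandas 2.3.3 and scipy 1.17.1 were used.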

Additional observations from a re-analysis of the deposited data

Results flagged for a closer look

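Collagen fragments had a KO over WT log2 ratio of -0.76 in caput and 0.62 in cauda at 13 months, opposite directions that were not tested against each other. Both signs changed per mRNA-class read, to 1.27 and -0.03.

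The summed miR-29 3p arms had a log2 ratio of -0.39 in caput at 13 months, while the testis value was 0.07, the cauda value 0.72 and the value of 2-month caput 1.02. The corpus ratio of -0.1 was also opposite to those 3 values. None of these differences was tested, since each group is 1 library, and the caput and corpus values changed sign with the base.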

How the results depend on the processing

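The count of 4 lower among 30 collagens, beside 22.1% of all genes, became 2 of 30 beside 13.8% with a pseudocount of 5. It was 2 of the 9 collagens left with a minimum of 5 RPKM, beside 24.1% of all genes. Centred on the caput secretory list it was 14 of 30, beside 56.5% of all genes. The median difference of 0.19 became 0.24 with a pseudocount of 0.1, 0.10 with a pseudocount of 5, 0.09 with no filter, 0.23 at 5 RPKM, 0.14 centred on the median of all genes, -0.98 centred on the secretory list, and 0.03 with totals without genes 8-fold lower in KO. Fragments in caput at 13 months (-0.76) became -0.35 without mismatches, with an interval that held 0, and 1.27 per mRNA-class read, and those in cauda -0.03 per mRNA-class read. The miR-29 sum in caput (-0.39) became 0.15 per classified read, 0.45 centred on the median miRNA and -0.42 without mismatches, and miR-29a-3p became 0.06 and 0.36 under the first pair of settings. Centred on the median miRNA, the corpus sum and its miR-29a-3p both became 0.04. The bases themselves differ between libraries, and why was not tested. Counted over each alternative of each main result, 22 values stayed within 1.5 times (counts) or within counting error (differences and ratios) of the main value, 12 moved further and 3 reversed. For the other results these numbers were 152, 51 and 5. A change of sign of the collagen median or of an uncalled collagen was never counted as reversed. The turn of the median and of the positive collagen differences to negative values under secretory centring is therefore among those that moved. Values within counting error could still change sign, as did testis fragments (-0.20, and 0.06 without mismatches) and miR-29c-3p in 2-month caput (0.31, and -0.30 centred on the median miRNA). No paired analysis was possible because each group is 1 library. The fragments of 2-month caput rest on 3 and 14 reads, and both the depth and the mRNA share of classified reads (0.0952% and 0.107%) were low there.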

Other observations

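Emid2 (NM_024474), the older symbol of Col26a1, lies outside the naming rule and was chosen after its values were seen. It stood at 1.73 RPKM in WT and 0.106 RPKM in KO, from 67 and 4 reads, a level 16.3-fold lower (6.06 to 61.4) with a log2(RPKM + 1) difference of -1.30, and would be a further called gene beside the 4 lower collagens.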
